A study of Mus musculus with 4 samples.

Results

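The variable segments of the immunoglobulin genes were described in whole-lung RNA of smoke-exposed and control mice. They were the genes whose symbol begins with Ighv, Igkv or Iglv among the array features listed with exactly 1 gene symbol, a feature being one target of the array. The rule found 199 of 30142 genes, namely 113 heavy-chain segments (Ighv), 86 kappa light-chain segments (Igkv) and 0 lambda light-chain segments (Iglv). Each was measured by 1 feature. RefSeq listed all 199 as variable segments of the mouse, 10 of them as pseudogenes, and its table held 348 Ighv, Igkv and Iglv symbols in all.

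An antibody is made of heavy and light chains, and each developing B cell joins 1 variable segment to short further segments of the same locus to build the part of a chain that binds antigen. A B cell and its descendants therefore carry the same variable segments, and plasma cells, the antibody-secreting descendants of B cells, make large amounts of the joined RNA. Segments of like sequence are grouped into families, which the first number of the symbol gives. Lung tissue holds B cells, and after chronic smoke exposure it can hold B cell follicles.

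The mice were male C57BL, an inbred strain, aged 10 weeks at the start. The smoke groups breathed mainstream cigarette smoke for 1 h per day on 5 days per week, and the control groups breathed clean air. The groups were 2-week smoke (5 mice, 12 weeks old at the end), 2-week control (5 mice, 12 weeks old), 4-week smoke (4 mice, 14 weeks old) and 4-week control (5 mice, 14 weeks old). The lung samples of each group were mixed into 1 pool and measured on 1 array, so no group had a replicate, and the antibody repertoires of single mice cannot be told apart within a pool.

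Values are log2 of the deposited array signal. A difference between 2 pools has no replicate check and is given with no p-value, and "higher" and "lower" are used for it. "Rose" and "fell" are kept for the smoke effect over both durations in limma with Benjamini-Hochberg adjustment over all genes tested, at an adjusted p below 0.05. A gene entered the comparisons if its mean over the 4 pools was at or above the 40th percentile of all genes, a log2 signal of 5.82 called the floor, as 18086 genes were. The sources used here do not say in which base the linear signal was made from log values, and had it been e, each log2 difference would shrink by the factor 0.69. The highest log2 signal was 19.69, above the range of a raw array scan, so base 2 is in doubt. All folds and counts at 1.5-fold take base 2 and would be smaller with base e. The median log2 signal over all features was 5.91 in 2-week smoke against 5.95 in 2-week control lungs, and 5.93 in 4-week smoke against 5.88 in 4-week control lungs. The defining genes of lung epithelium were among the brightest of the array in every pool, with surfactant protein C (Sftpc) between 18.85 and 18.97. Signals of B cell, plasma cell, macrophage and heart muscle genes differed between the pools and are given beside the segments.

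At or above the floor were 156 of the 199 segments, 96 of the heavy chain and 60 of kappa. The 43 below it, 17 heavy and 26 kappa, had mean log2 signals of 3.71 to 5.81. The segments just inside were Ighv1-19-1 at a mean of 5.85, Igkv3-3 at 5.91 and Ighv1-59 at 5.93. Each had its highest value in the 2-week control pool and would lie below the floor on the mean of its other pools. The same held for Ighv1-22. Counts that involve the 2-week control pool thus include segments that this pool brought over the floor. With no floor, 27 heavy segments were at least 1.5-fold lower in 2-week smoke than in 2-week control lungs, as with it. Those just outside were Ighv12-3 at 5.81, Igkv18-36 at 5.80 and Igkv4-91 at 5.73. Igkv14-111, below the floor, had 5.38 in 2-week smoke against 6.58 in 2-week control lungs, and 4.66 in 4-week smoke against 5.85 in 4-week control lungs. It was the 1 segment below the floor that differed at least 1.5-fold at 2 weeks. At 4 weeks it was joined by the pseudogene Igkv13-87, which was higher in the smoke pool (5.14 against 4.51).

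The pools differed in the whole class of segments. In the 2-week control pool, 86 of the 156 segments (55.1%) had their highest value of the 4 pools, while 26.5% of all 18086 genes did. In the 4-week smoke pool, 80 of the 156 (51.3%) had their lowest value, while 32.2% of all genes did. The share with the highest value in the 2-week control pool was 65.6% for the heavy chain (63 of 96) and 38.3% for kappa (23 of 60). Lowest values in the 4-week smoke pool were found in 50 of 96 heavy and 30 of 60 kappa segments. Family Ighv1 held 37 of these 50, and family Igkv4 held 19 of these 30. Ighv1 also held 47 of the 63 heavy segments highest in the 2-week control pool. The remaining segments of each chain thus had smaller shares of lowest values in the 4-week smoke pool, close to the 32.2% of all genes. Every comparison with the 2-week control pool below shares that pool, and every one with the 4-week control pool shares that one.

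After 2 weeks of smoke, heavy-chain segments were mostly lower than in the 2-week control pool. Their median difference was -0.33, with 79 of 96 below 0, while the median of all genes was 0.01. At least 1.5-fold lower were 27 heavy segments, which is 28.1% of them, and at least 1.5-fold higher were 2. For all genes the shares were 1.22% lower and 1.82% higher. Kappa segments had a median of -0.11, with 3 of 60 at least 1.5-fold lower and 1 higher.

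After 4 weeks both classes had medians below 0. The median difference of kappa segments between the 4-week smoke and the 4-week control pool was -0.23, and 15 of 60 (25%) were at least 1.5-fold lower against 3 higher. Heavy segments had a median of -0.09, with 7 of 96 lower and 4 higher. With no floor, the medians were -0.0923 for kappa and -0.0810 for heavy segments. Of all genes, 1.5% were lower and 2.53% higher, around a median of -0.02. The difference between the classes at either duration was not tested, since single pools give no error for it.

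The unexposed pools differed from each other in the heavy class by about as much as the 2-week smoke pool did from its control. Between the 4-week and the 2-week control pool, heavy segments had a median difference of -0.31, with 30 of 96 at least 1.5-fold lower and 3 higher. Kappa segments had a median of -0.02, with 4 of 60 lower and 3 higher. All genes had 2.24% lower and 1.85% higher. Between the 4-week and the 2-week smoke pool, the heavy median was -0.17 (9 lower, 4 higher) and the kappa median -0.20 (6 lower, 2 higher), beside 1.8% lower and 1.35% higher among all genes. The spread of single segments was wider than that of other genes in each comparison. The standard deviation over the 156 segments was 0.44 at 2 weeks, 0.49 at 4 weeks and 0.51 between the control pools, against 0.26, 0.29 and 0.28 over all genes. The segments were also dimmer, with median log2 signals of 7.06 to 7.47 in the pools against 8.42 to 8.47 for all genes. The part of signal level in the wider spread was not tested.

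**Figure D1:**
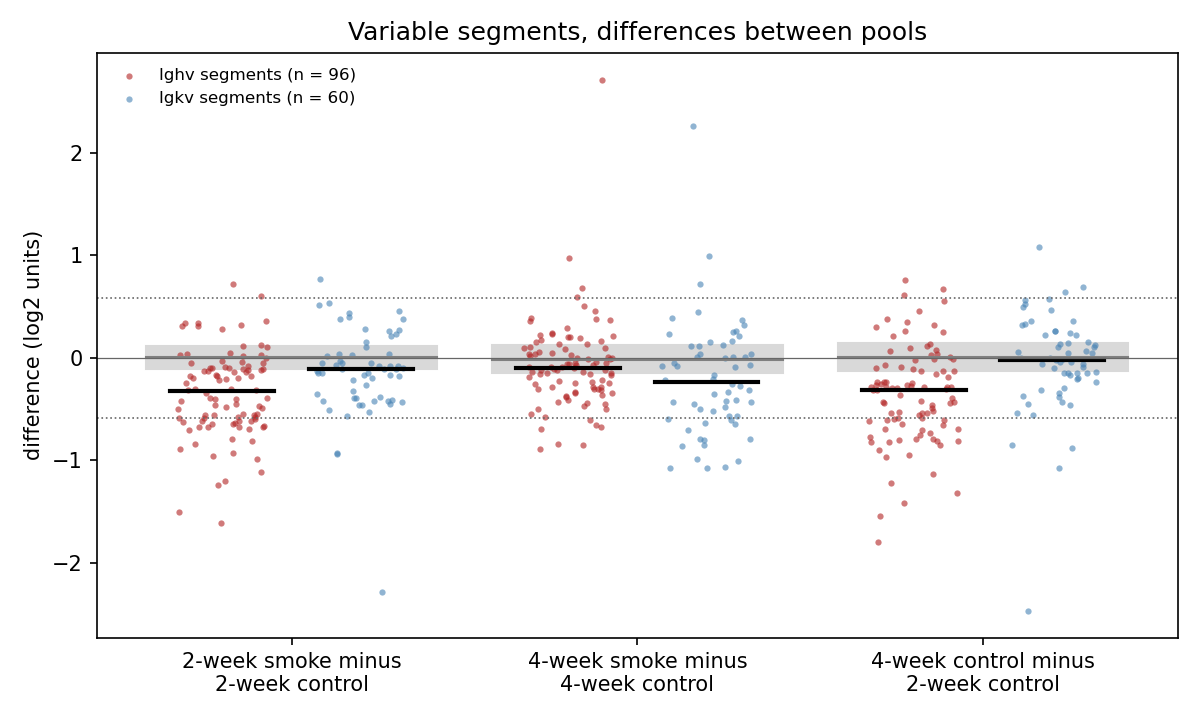
Each point is 1 segment at or above the floor, placed by its log2 difference between the pools named on the horizontal axis (red, 96 Ighv segments; blue, 60 Igkv segments). Black bars are class medians, the grey band spans the middle 50% of all 18086 genes with their median as a grey line, and dotted lines mark a 1.5-fold difference. The Ighv median lies at -0.33 after 2 weeks of smoke and at -0.31 between the control pools, and the Igkv median at -0.23 after 4 weeks of smoke.

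The heavy-chain result moved with the control pool used. With the 4-week control pool in its place, the 2-week smoke pool had a heavy median of 0.04 and 4 segments at least 1.5-fold lower, against -0.33 and 27 with its own control. With the 2-week control pool in place of the 4-week one, the 4-week smoke pool had a heavy median of -0.44 and 41 segments lower, against -0.09 and 7. The heavy medians were thus furthest from 0 in the comparisons that held the 2-week control pool, whichever pool was set against it. In the kappa class the 4-week smoke pool had a median of -0.28 and 9 segments at least 1.5-fold lower against the 2-week control pool, beside -0.23 and 15 against its own control, so that the heavy median was the lower of the classes with the exchanged control.

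Family Ighv1, the largest of the mouse heavy-chain locus, held 20 of the 27 heavy segments that were at least 1.5-fold lower at 2 weeks. Of its 61 segments measured, 56 were at or above the floor. Their median was -0.49 between the 2-week smoke and the 2-week control pool, with 0 at least 1.5-fold higher. It was -0.15 at 4 weeks (5 lower, 1 higher) and -0.50 between the 4-week and the 2-week control pool (22 lower, 0 higher). The 2-week control pool had the highest of the 4 values in 47 of the 56. The 40 heavy segments of other families had medians of -0.13 at 2 weeks, 0.02 at 4 weeks and -0.13 between the control pools. With the 4-week control pool in place of its own, the 2-week smoke pool had an Ighv1 median of 0.07.

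Single Ighv1 segments showed this pattern with different sizes. Ighv1-18 had 7.21 in 2-week smoke against 8.71 in 2-week control lungs, and 6.98 in 4-week smoke against 7.17 in 4-week control lungs. Ighv1-67 had 5.61 in 2-week smoke against 7.21 in 2-week control lungs, and 5.99 in 4-week smoke against 5.79 in 4-week control lungs. Both were high in the 2-week control pool alone and close together in the other 3. Ighv1-77 was unlike them, with 7.09 in 2-week smoke against 7.64 in 2-week control lungs, and 6.76 in 4-week smoke against 7.65 in 4-week control lungs. It had similar values in both control pools and the lowest in the 4-week smoke pool, where its difference of -0.89 was the most negative of the heavy chain at that duration. The pseudogene Ighv1-2 also had its highest value in the 2-week control pool, with 14.07 in 2-week smoke against 14.86 in 2-week control lungs, and 13.83 in 4-week smoke against 13.89 in 4-week control lungs. Ighv1-62-2 and Ighv1-71 had identical values in all 4 pools, so their signals cannot be told apart. How far probes of other related segments share their signal was not tested.

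Family Igkv4 held 12 of the 15 kappa segments that were at least 1.5-fold lower at 4 weeks. Of its 25 segments, 22 were at or above the floor. Between the 4-week smoke and the 4-week control pool their median was -0.60, with 0 at least 1.5-fold higher and 19 below 0. Between the 2-week smoke and the 2-week control pool it was -0.06, with 1 lower, and between the control pools 0.02. The 38 kappa segments of other families had a median of -0.03 at 4 weeks, with 3 lower and 3 higher. In 19 of the 22 the lowest of the 4 values was that of the 4-week smoke pool, and all 22 lay below the 2-week control pool too, by a median of -0.49, with 5 of them at least 1.5-fold lower.

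Igkv4-57 had 7.42 in 4-week smoke against 8.49 in 4-week control lungs, and 7.96 against 7.92 in the 2-week smoke and control pools. Igkv4-61 had 7.22 against 8.28 at 4 weeks and 7.91 against 7.96 at 2 weeks. Igkv4-69 had 6.07 against 7.14 at 4 weeks and 6.62 against 6.46 at 2 weeks. These segments were alike at 2 weeks, and at 4 weeks the control pool was the highest and the smoke pool the lowest of the 4. Igkv4-70 followed the same order, with 7.40 against 8.39 at 4 weeks and 7.81 against 7.92 at 2 weeks. Within the family Igkv4-58 and Igkv4-60 differed from these, being higher in the 4-week smoke pool, by 0.32 and 0.22. Igkv4-57-1 was lower in smoke at both durations, by -0.94 at 2 weeks and -0.56 at 4 weeks.

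**Figure D2:**
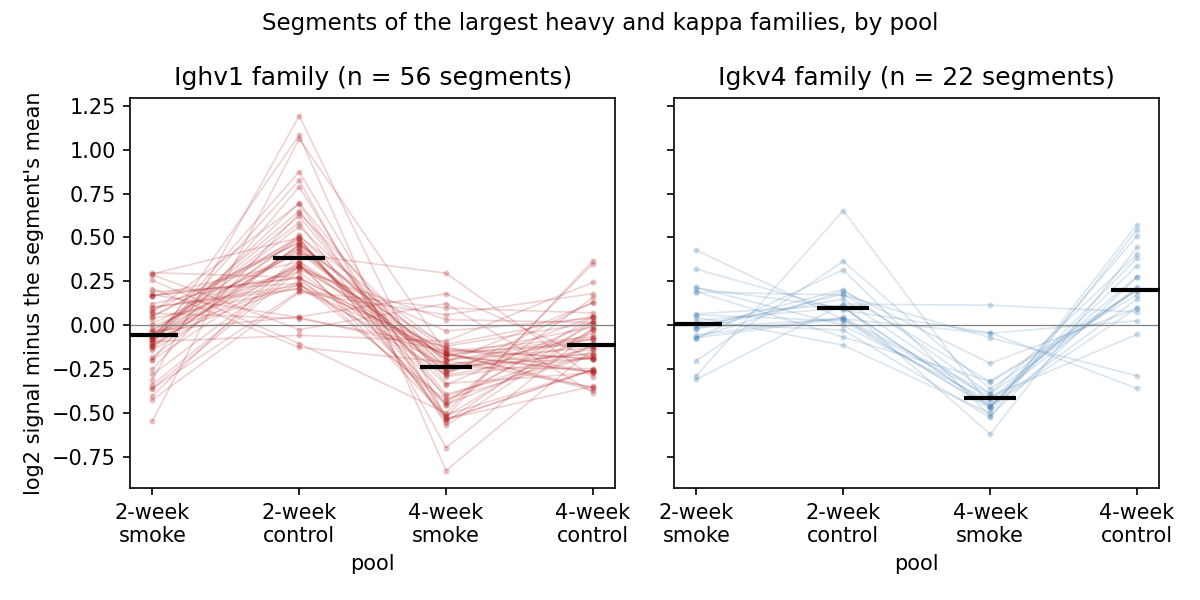
Each thin line joins the 4 pool values of 1 segment, given as log2 signal minus the segment's own mean over the pools, for the 56 Ighv1 segments (left) and the 22 Igkv4 segments (right). Black bars are medians over the segments. Most Ighv1 lines peak in the 2-week control pool, which is the highest of the 4 in 47 segments, and most Igkv4 lines are lowest in the 4-week smoke pool, which is the lowest of the 4 in 19 segments.

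Other families were small, and their medians pointed in several directions. All 4 Ighv8 segments were lower in the 2-week smoke than in the 2-week control pool, with a median of -0.63, and their median at 4 weeks was -0.04. Both Ighv10 segments were also lower at 2 weeks, Ighv10-1 by -1.24 and Ighv10-3 by -0.69. The 4 Ighv6 segments had a median of 0.22 at 2 weeks and 0.37 between the 4-week and the 2-week control pool. Both Ighv11 segments were higher in smoke, and neither passed limma, with adjusted p-values of 0.22 for Ighv11-1 and 0.51 for Ighv11-2. Ighv11-1 was higher by 0.34 at 2 weeks and 0.39 at 4 weeks, and Ighv11-2 by 0.31 and 0.14. The 5 Igkv3 segments were lower in smoke at both durations, with medians of -0.15 and -0.33. The 3 Igkv2 segments were higher at 4 weeks, with a median of 0.38, and lower at 2 weeks, with a median of -0.15.

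**Figure D3:**
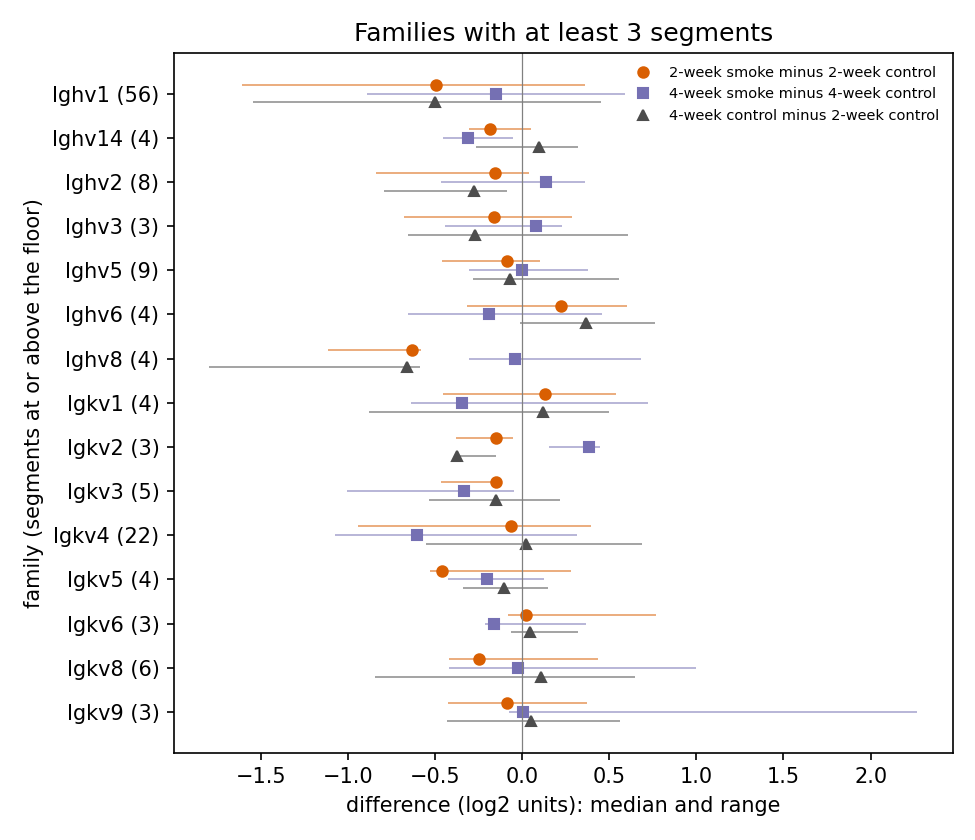
Markers are medians and lines are ranges of the log2 differences over the segments of each family with at least 3 segments at or above the floor, whose number is in brackets. Circles are the 2-week smoke minus the 2-week control pool, squares the 4-week smoke minus the 4-week control pool and triangles the 4-week minus the 2-week control pool. Circle and triangle lie together in Ighv1 (-0.49 and -0.50) and Ighv8 (-0.63 and -0.66), and in Igkv4 the square stands apart at -0.60.

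A segment was taken as high in 1 pool where it lay at least 1 log2 unit, 2-fold, above the highest of the other 3. In the 2-week control pool this held for 6 segments, beside 0.0995% of all genes (18 genes), and in the 4-week smoke pool for 2, beside 0.0498% (9 genes). It held for 0 segments in the 2-week smoke and 0 in the 4-week control pool, and no segment at or above the floor was low in 1 pool by the same margin.

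Igkv19-93, the sole measured segment of its family, had 8.48 in 2-week smoke against 10.77 in 2-week control lungs, and 8.42 in 4-week smoke against 8.30 in 4-week control lungs. It stood 2.29 above the next pool, 4.88-fold, and the other 3 pools lay close together. Ighv1-18 stood 2.84-fold above the next pool and Ighv1-67 2.33-fold, both in the 2-week control pool. Among the segments high in 1 pool, Ighv1-67 alone reached the floor only through its high pool, since its other 3 pools averaged 5.80. Without Ighv1-67, 5 segments were high in the 2-week control pool. Ighv10-1 had 8.69 in 2-week smoke against 9.93 in 2-week control lungs, and 8.53 in 4-week smoke against 8.62 in 4-week control lungs. The remaining segments high in the 2-week control pool were Ighv1-64 and Ighv8-12, by 1.20 and 1.11, and 1 of the other 3 values of Ighv8-12 lay below the floor.

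Ighv13-2 had 6.26 in 2-week smoke against 6.81 in 2-week control lungs, and 9.60 in 4-week smoke against 6.88 in 4-week control lungs. With 2.72 above the next pool, 6.57-fold, it had the widest such gap of the 156 segments. Igkv9-123 had 6.14 in 2-week smoke against 6.57 in 2-week control lungs, and 8.40 in 4-week smoke against 6.14 in 4-week control lungs, 1.84 above the next. Igkv8-28 came just under the margin, with 7.66 in the 4-week smoke pool, 1.00 above the 6.66 of the 4-week control pool, and with 5.78 in the 2-week smoke and 6.14 in the 2-week control pool. Of these 3 segments 1 is of the heavy chain and the others are of kappa.

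**Figure D4:**
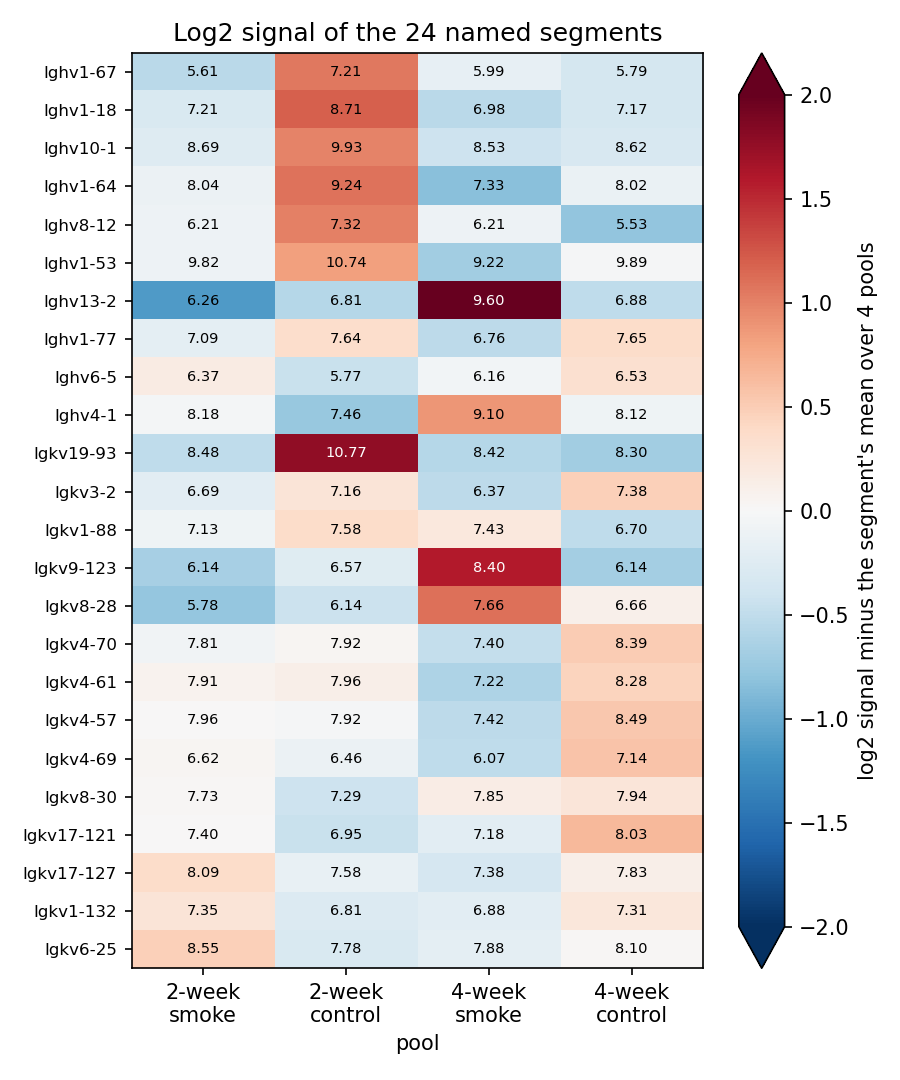
Rows are the 24 segments named by rule and columns the 4 pools. The number in each cell is the log2 signal, and the colour is that signal minus the segment's mean over the pools. Deep red cells mark Igkv19-93 in the 2-week control pool (10.77) and Ighv13-2 (9.60) and Igkv9-123 (8.40) in the 4-week smoke pool.

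The 2-week and the 4-week smoke comparison share no pool. Below 0 in both were 74 of 156 segments (47.4%), 50 of 96 heavy and 24 of 60 kappa, beside 29.3% of all genes. In each comparison by itself, 76.9% of the segments were below 0 at 2 weeks and 64.1% at 4 weeks. For all genes these shares were 48.6% and 53.5%. The share of segments below 0 in both was thus no larger than unrelated signs would give. At least 1.5-fold higher at both was 1 of 156 segments, beside 1.13% of all genes, and at least 1.5-fold lower at both were 2, beside 0.337%. Across the 156 segments the 2-week and the 4-week smoke difference had a Pearson correlation of -0.09, and across all 18086 genes one of 0.43. Neither genes nor segments are independent points, since they share arrays and, for related segments, sequence.

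Ighv4-1 rose with smoke. It had 8.18 in 2-week smoke against 7.46 in 2-week control lungs, and 9.10 in 4-week smoke against 8.12 in 4-week control lungs. The limma effect was 0.85 ± 0.11 log2 units (SE, 4 arrays), 1.80-fold, with an adjusted p of 0.026. Both smoke values lay above both control values, the 2-week smoke value only just above the 4-week control value.

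Ighv1-53 and Ighv1-64 fell. Ighv1-53 had 9.82 in 2-week smoke against 10.74 in 2-week control lungs, and 9.22 in 4-week smoke against 9.89 in 4-week control lungs. Its limma effect was -0.80 ± 0.11 (SE, 4 arrays), with an adjusted p of 0.030. Both smoke values lay below both control values, the 2-week smoke value only just below the 4-week control value. Ighv1-64 had 8.04 against 9.24 at 2 weeks and 7.33 against 8.02 at 4 weeks, with an effect of -0.95 ± 0.14 (SE, 4 arrays) and an adjusted p of 0.036. Its 2-week smoke value lay just above its 4-week control value, so the groups overlapped across durations. Between the 4-week and the 2-week control pool, Ighv1-53 differed by -0.85 and Ighv1-64 by -1.22, each more than its limma effect. Ighv4-1 differed there by 0.67, less than its effect.

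These 3 were the segments that passed the limma test, 1 up and 2 down of 156, beside 1.15% of all genes that rose and 0.315% that fell. Of the kappa segments 0 of 60 passed, and 18 of them had an unadjusted p under 0.05, 17 in the direction of lower signal with smoke. Over both chains 49 segments had an unadjusted p under 0.05 on the lower side, which is 31.4% of 156 beside 5.15% of all genes. On the higher side 5 did, beside 6.46% of all genes. Without the term for duration, 24 segments had an unadjusted limma p under 0.05 on either side, beside 54 with it. For all genes these counts were 1163 and 2101. The segments share arrays and, where related, sequence, so such counts are not of independent points. None of the 3 calls held under cyclic loess scaling, without the term for duration or in any fit that left out 1 pool, with adjusted p-values of 0.094 to 1.00. Under cyclic loess the effects were 0.85 for Ighv4-1, -0.77 for Ighv1-53 and -0.95 for Ighv1-64. Without the term for duration they were those of the fit with it, and 0 of 18086 genes passed there. Leaving out 1 pool moved the effect of Ighv4-1 between 0.39 (without 4-week smoke) and 1.31 (without 2-week smoke). It moved Ighv1-53 between -1.22 (without the 4-week control) and -0.37 (without the 2-week control), and Ighv1-64 between -1.56 and -0.34 without the same pools. The signs stayed, and under median centring of the arrays 23 segments passed, 3 up and 20 down. That fit gave every gene the same SE of 0.15, so its count cannot be set directly beside that of the main fit. Fewer of all genes had an unadjusted limma p under 0.05 there, 1746 against 2101.

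Just above the limma threshold lay Igkv4-57-1, Ighv1-77 and Ighv1-55, each with an adjusted p of 0.051 and lower in smoke at both durations. Igkv3-2 was also lower at both, with 6.69 against 7.16 at 2 weeks and 6.37 against 7.38 at 4 weeks, and its adjusted p was 0.092.

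At least 1.5-fold different in opposite directions at the 2 durations were 2 segments, Ighv1-81 and Ighv8-12, beside 0.0829% of all genes. Ighv8-12 had 6.21 in 2-week smoke against 7.32 in 2-week control lungs, and 6.21 in 4-week smoke against 5.53 in 4-week control lungs. The smoke pools had equal values and the control pools stood above and below them, that of 4 weeks under the floor. Ighv1-81, named after its values were seen, had 5.91 against 6.72 at 2 weeks and 6.61 against 6.01 at 4 weeks.

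The segments highest at 2 weeks of smoke relative to control were mostly kappa segments that did not keep this at 4 weeks. They were picked for that 2-week difference, so a smaller one at 4 weeks is no result by itself. Across the 60 kappa segments the 2-week and the 4-week smoke difference had a Pearson correlation of -0.21. Igkv6-25 had 8.55 in 2-week smoke against 7.78 in 2-week control lungs, and 7.88 against 8.10 in the 4-week pools. Igkv17-127 had 8.09 against 7.58 at 2 weeks and 7.38 against 7.83 at 4 weeks. Igkv1-132 had 7.35 against 6.81 at 2 weeks and 6.88 against 7.31 at 4 weeks. All 3 were higher in smoke at 2 weeks and lower in smoke at 4 weeks. Igkv17-121 shared that order with 7.40 against 6.95 at 2 weeks and 7.18 against 8.03 at 4 weeks, and so did the heavy segment Ighv6-5 with 6.37 against 5.77 and 6.16 against 6.53. Igkv1-88 ran the other way, with 7.13 against 7.58 at 2 weeks and 7.43 against 6.70 at 4 weeks. Igkv8-30 was named for the control pools, with 7.94 in the 4-week and 7.29 in the 2-week control pool, and it was at 7.73 in 2-week and 7.85 in 4-week smoke lungs.

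Likeness between neighbouring segments was set beside that of all pairs of a chain. By the gene order of RefSeq, 49 pairs of neighbouring heavy segments, 30 of them of one family, had a median absolute difference of 0.42 between their 2-week smoke differences, and all 4560 pairs of heavy segments had 0.41. At 4 weeks these values were 0.27 and 0.31. Among kappa segments, 19 neighbouring pairs, 16 of one family, had 0.22 at 2 weeks and 0.43 at 4 weeks, and all 1770 pairs had 0.35 and 0.48. Neighbours were closer to each other than all pairs mainly among kappa segments at 2 weeks. These are descriptions of pairs that share segments, with no test.

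Pseudogenes and composite features gave a further view. The 5 pseudogenes at or above the floor, Ighv1-2, Ighv1-30, Ighv2-1, Igkv2-116 and Igkv4-56, had a median of -0.26 at 2 weeks, -0.06 at 4 weeks and -0.31 between the 4-week and the 2-week control pool. All 5 were lower in the 2-week smoke than in the 2-week control pool. A further 24 features list several gene symbols with an immunoglobulin variable segment among them and are no members, 8 of the heavy-chain locus, 13 of kappa, 1 of lambda and 2 mixed. Their median difference was -0.13 at 2 weeks and -0.04 at 4 weeks, with 0 of 24 at least 1.5-fold different at 2 weeks and 3 higher and 2 lower at 4 weeks. The lambda feature, which lists 9 symbols, had 7.98 in 2-week smoke against 8.13 in 2-week control lungs, and 7.86 in 4-week smoke against 7.77 in 4-week control lungs.

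Constant-region genes, whose products form the part of the antibody that gives its class, were covered by 4 of 13 listed genes, 3 at or above the floor. Ighm, the constant region of IgM, which naive B cells carry, had 11.02 in both 2-week pools, and 10.26 in 4-week smoke against 10.60 in 4-week control lungs. Ighg2b, of an IgG class, had 5.68 in 2-week smoke against 6.63 in 2-week control lungs, and 6.26 in 4-week smoke against 5.63 in 4-week control lungs, the lower value of each pair lying under the floor. Ighg1, of another IgG class, had 6.14 in 2-week smoke against 6.08 in 2-week control lungs, and 6.27 in 4-week smoke against 6.07 in 4-week control lungs. Ighe, of IgE, lay below the floor, at 4.46 to 4.68. None of the 3 passed limma, and 0 had an unadjusted p under 0.05. The joining segment Igkj3, the 1 of 5 J and D segments at or above the floor, had 8.21 in 4-week smoke against 9.09 in 4-week control lungs, and 9.55 against 9.38 at 2 weeks, lowest in the same pool as most Igkv4 segments.

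Plasma cell genes had median differences of 0.12 at 2 weeks and 0.14 at 4 weeks, with 5 of 14 below 0 at each. Their summed signal was 19927 in 2-week smoke against 20648 in 2-week control lungs, and 23382 in 4-week smoke against 20687 in 4-week control lungs. The sum and the median thus ran in opposite directions at 2 weeks. By far the brightest of the list was Xbp1, which the sum mostly follows. It had 13.11 against 13.30 at 2 weeks and 13.50 against 13.24 at 4 weeks. How much of these signals came from plasma cells was not tested. Of 17 listed, 14 were at or above the floor, and 1 rose, the surface receptor Slamf7, which macrophages and natural killer cells also carry, by 1.30 ± 0.14 (limma, SE, 4 arrays) with an adjusted p of 0.013. Jchain, which joins the units of IgM and dimeric IgA, had 6.06 in 2-week smoke against 7.06 in 2-week control lungs, and 6.26 in 4-week smoke against 5.87 in 4-week control lungs. Jchain and Ighg2b thus had their highest values in the 2-week control pool, as most heavy segments did. Most plasma cell genes did not share this. Tnfrsf13b was also highest in that pool, while Mzb1, Sdc1, Fkbp11, Txndc5 and Edem1 had their lowest values there. Mzb1, a chaperone of antibody secretion, was higher in smoke by 0.26 and 0.31, with an adjusted p of 0.34. The plasma cell receptor Tnfrsf17 was below the floor in its mean.

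B cell genes were, at the median, higher in smoke at 2 weeks and lower at 4 weeks. The summed signal of the 18 measured of 19 listed was 7041 in 2-week smoke against 6119 in 2-week control lungs, and 5393 in 4-week smoke against 6148 in 4-week control lungs. The median difference of the 18 was 0.16 at 2 weeks and -0.26 at 4 weeks, with 14 of 18 below 0 at 4 weeks. Cd79b, part of the B cell receptor, was lower at 4 weeks by -0.65, the adaptor Bank1 by -0.60 and the transcription factor Ebf1 by -0.50. Fcer2a, the low-affinity IgE receptor CD23, ran the other way, with 8.48 against 7.98 at 2 weeks and 8.49 against 7.75 at 4 weeks. Its adjusted p in limma was 0.064. Vpreb3, with the largest mean smoke difference of the 18, was higher in smoke by 1.16 at 2 weeks and 0.30 at 4 weeks. Cd22 was higher by 0.32 and 0.23, and Cd37 by 0.60 and 0.01. With limma 0 of the 18 passed, and 3 had an unadjusted p under 0.05, all on the higher side, beside 11.6% of all genes on either side. In bulk lung, fewer B or plasma cells and less RNA per cell cannot be told apart, and the part of either in the segments' differences was not tested.

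**Figure D5:**
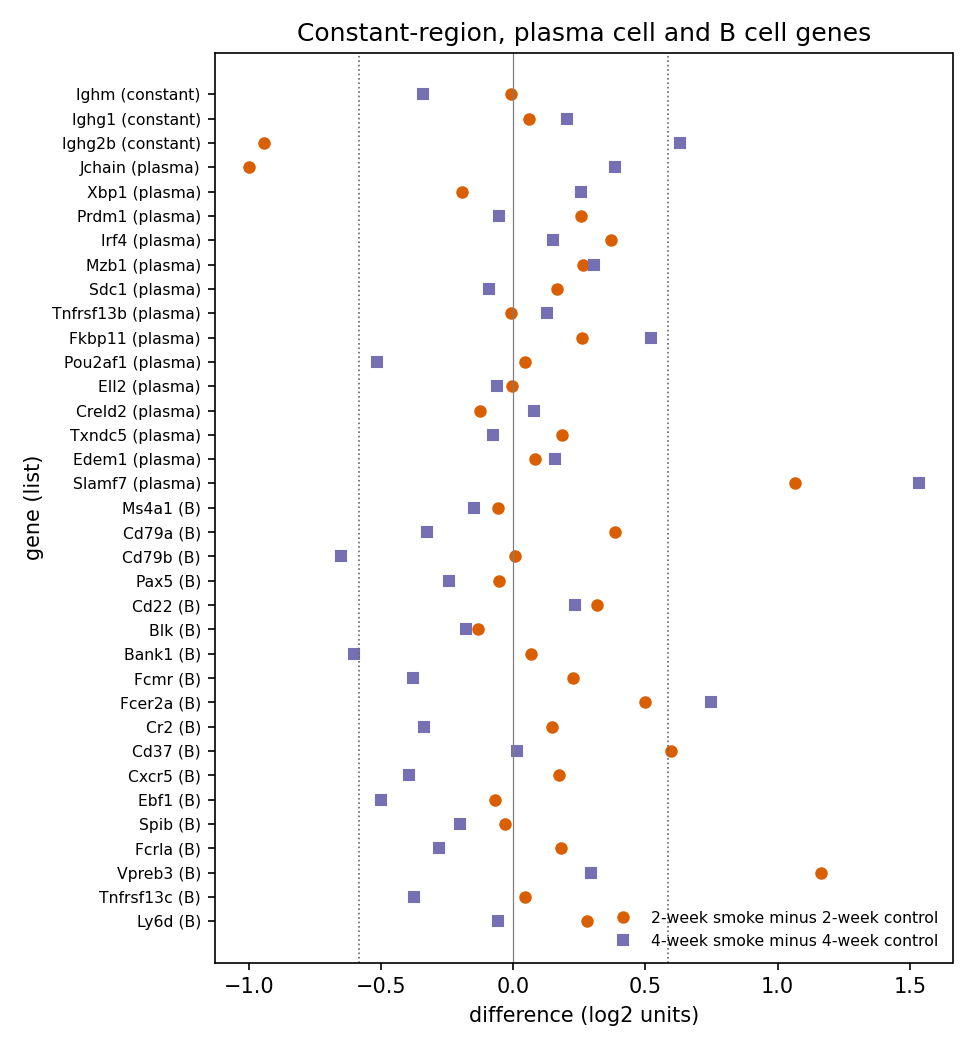
Each row is a constant-region, plasma cell or B cell gene at or above the floor. Circles are the log2 difference of the 2-week smoke minus the 2-week control pool, squares that of the 4-week smoke minus the 4-week control pool, and dotted lines mark a 1.5-fold difference. Jchain and Ighg2b are lower in smoke at 2 weeks and higher at 4 weeks, most B cell genes are lower in smoke at 4 weeks, and Slamf7 is higher at both.

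Genes of tissues and cells that a lung sample could hold beside B cells were followed as well. Of the genes for lymph node stroma, Cxcl13, the chemokine that attracts B cells to follicles, rose by 0.86 ± 0.12 (limma, SE, 4 arrays) with an adjusted p of 0.032, while Ccl19 had 6.65 against 6.70 at 2 weeks and 6.78 against 6.84 at 4 weeks, and Madcam1 and Glycam1 lay below the floor. Chst4, an enzyme of the high endothelial venules of lymph nodes, had 7.13 in 4-week smoke against 8.05 in 4-week control lungs, and 7.45 against 7.38 at 2 weeks. Pigr, which carries IgA and IgM across the epithelium, rose by 1.75 ± 0.17 (adjusted p = 0.008) and Fcgr2b, the inhibitory IgG receptor, by 0.75 ± 0.12 (adjusted p = 0.046), both in limma over 4 arrays. Of 5 macrophage genes 4 rose, with a summed signal of 20937 in the 2-week smoke pool against 10156 in the 2-week control pool and 32290 against 11106 at 4 weeks. No germinal centre, pre-B cell, thymus, T cell, lung epithelium or heart muscle gene passed limma, of 4, 1, 2, 7, 6 and 3 at or above the floor, and 0, 0, 0, 2, 1 and 2 of these had an unadjusted p under 0.05, a mark that 11.6% of all genes reached. The heart muscle genes had a summed signal of 9504 in the 2-week smoke pool against 11514 in the 2-week control pool, and of 8452 in the 4-week smoke pool against 15650 in the 4-week control pool. Nppa, an atrial hormone and mark of heart muscle in a lung sample, had 10.19 against 9.15 at 2 weeks and 9.77 against 11.39 at 4 weeks. The part of these cells and tissues in the segments' differences was not tested.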

How the data were processed

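Whole-lung RNA pools of 4 groups were measured on 1 array each, and samples were grouped by their titles. The authors deposited linear intensities from RMA; the submitters' processing notes name Affymetrix Expression Console 1.4.1 for it. RMA equalises the distribution of values over arrays, which leaves differences relative to other genes. For lack of a stated genome build, coordinates are left out. A log2 table had been foreseen, so log2 of the values was taken. No detection value per feature was used, and the number of arrays limits the precision.

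The 65956 features included 30604 with 1 gene symbol, 2146 with several and 33206 unlisted. Where a symbol had several features, the one with the highest mean was used. RefSeq (assembly GRCm38.p6) gave biotypes and gene order; its promoter table held 0 of the segments, so the planned motif search was not run and no sequence is shown.

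Limma 3.58.1 in R 4.3.3 (lmFit and eBayes, terms for smoke and duration, 4 arrays, 1 residual degree of freedom) was fitted on all 18086 genes with Benjamini-Hochberg adjustment. It sets the mean smoke difference against its change between durations, and the spread between animals is not seen. The fit was also run on data simulated from its own fitted prior, with independent genes and no duration effect. Such data cannot show how the fit does with related segments or pooled animals. Tables were handled in Python 3.11.15 with pandas 2.3.3.

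Named were the 6 highest and 6 lowest segments per smoke difference, the 5 highest and 5 lowest between controls, the 3 per direction alike at both durations, up to 4 per pool of those high or low in 1 pool and up to 10 passing limma, 24 in all. Of the gene lists, all measured constant-region genes were named. The plan also asked for the 3 genes with the largest mean smoke difference in the other lists, and not all of these are named. Any other gene or segment was named after its values were seen, to show its group. The segments, lists and tests were chosen with earlier results of these data known. Alternatives were median centring, cyclic loess, no floor, a floor at the 60th percentile, the mean of features, identical values once, a 2-fold threshold, no duration term, each pool left out and, chosen after seeing the data, exchanged control pools.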

Additional observations from a re-analysis of the deposited data

Results flagged for a closer look

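Among the variable segments and the listed companion genes, 4 had smoke differences of at least 1.5-fold at both durations that were opposite in sign, as had 15 of all 18086 genes (0.0829%). With 1 pool per group the difference between the durations was not tested. Ighv1-81 differed by -0.81 between the 2-week smoke and the 2-week control pool and by 0.59 between the 4-week smoke and the 4-week control pool. Ighv8-12 differed by -1.11 at 2 weeks and 0.68 at 4 weeks. The IgG constant region Ighg2b differed by -0.94 at 2 weeks and 0.63 at 4 weeks. The cardiac hormone gene Nppa, no antibody gene, differed by 1.04 at 2 weeks and -1.62 at 4 weeks. The lower value of each Ighg2b pair and the 4-week control value of Ighv8-12 lay below the floor of 5.82. All differences are on the log2 scale.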

How the results depend on the processing

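Of the class counts, medians and limma counts, 119 values stayed within their margin and 47 moved, and of the medians that of the heavy segments at 2 weeks changed sign with the exchanged control pool. The kappa median between the control pools (-0.02) was 0.05 under median centring and 0.02 with the floor at the 60th percentile. Median centring gave 6 kappa segments higher between the control pools (main value 3), 23 segments passing limma (3) and 585 genes (265). In that limma fit every gene had the same SE, unlike in the main fit. Cyclic loess gave 0 segments and 36 genes in limma, with 45 and 2182 at an unadjusted p under 0.05. With no floor, the kappa median at 4 weeks was -0.0923 (-0.23) and 7 kappa segments were lower between the control pools (4). With the floor at the 60th percentile, heavy segments numbered 16 lower (27) and 1 higher (2) at 2 weeks with a median of -0.45 (-0.33), 1 higher (4) at 4 weeks, and 16 lower (30) and 1 higher (3) between the control pools with a median of -0.44 (-0.31). In that setting 0 kappa segments were higher at 4 weeks (3) and 1 between the control pools (3), 0 were high in the 4-week smoke pool alone (2) and 8 passed limma; fewer segments were tested. At 2-fold, heavy segments lower and higher were 5 and 0 at 2 weeks, 0 and 1 at 4 weeks and 6 and 0 between the control pools, and kappa segments 1 and 0, 4 and 1, and 2 and 1. With the 4-week control pool in place of the 2-week one, 4 heavy segments were lower with a median of 0.0422 and 2 kappa segments were higher (1). With the 2-week control pool in place of the 4-week one, 41 heavy segments were lower with a median of -0.44 and 9 kappa segments (15). The mean of features gave 6 segments in limma and identical values once gave 7. No duration term gave 0 segments and 0 genes, with 24 and 1163 at an unadjusted p under 0.05. Leaving out 1 pool at a time, without duration term, gave 0 to 2 segments and 0 to 34 genes. The cause of these shifts was not tested. Ighv4-1, Ighv1-53 and Ighv1-64 had adjusted p-values of 0.094 to 0.14 under cyclic loess and of 0.82 to 0.88 with no duration term, with their signs kept. No paired analysis was possible because each group had 1 pool.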
